A study of Mus musculus with 36 samples.

Results

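The ductal programme of the pancreas was followed here through 9 genes, 4 transcription factors (Sox9, Onecut1, Onecut2 and Prox1), 4 keratins (Krt7, Krt8, Krt18 and Krt19) and the chloride channel gene Cftr. They were chosen by name as duct genes, with earlier results of these data known, out of 22392 GENCODE genes with an Entrez identifier. For every gene, K4me3 and K27me3 peaks were read in each mouse within 3 kb of any annotated transcription start site (TSS) and over the gene body. All 9 genes had K4me3 at the TSS in at least 8 of 12 mice, and K27me3 lay at the TSS of Onecut2 in every mouse, where both marks were found, and of each other member in 0 to 3 mice.

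H3K4me3 is a histone mark of promoters that are active or ready to be used, and H3K27me3 is the repressive mark that the methyltransferase EZH2 deposits through its SET domain. Promoters that hold both marks are called bivalent and are typical of developmental regulators. SOX9 keeps duct identity in the adult pancreas and is switched on when acinar cells convert to duct-like cells (acinar-to-ductal metaplasia). ONECUT1 (HNF6) acts above SOX9 in duct formation, ONECUT2 is its paralogue, and PROX1 is a homeodomain factor of the early pancreas that remains in ducts. KRT8 and KRT18 pair to form the basic filament of simple epithelia and are made by acinar cells too, whereas KRT19 and KRT7 mark ducts. CFTR is the apical channel that drives bicarbonate-rich fluid secretion.

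The samples were whole pancreata of mice of 2 to 4 months, taken 22 days after tamoxifen given by gavage to all groups, with 3 mice per genotype and both marks profiled in each mouse. Control mice (WT) were wild type or carried the Mist1creERT allele alone, according to the study's methods. The EZ group was Mist1creERT/+ with EZH2ΔSET, a floxed Ezh2 lacking its SET exons after recombination. The mice labelled KR and KE share a further allele on the same Mist1creERT/+ background, and KE carried EZH2ΔSET as well. EZ against control and KE against KR therefore each differ in the Ezh2 allele. Control mice that were wild type also lacked the Mist1creERT allele, so EZ against control may differ in that allele too. Cre was expressed from the Mist1 locus, which the study treats as acinar specific within the pancreas and which leaves 1 Mist1 allele. Recombination was thus directed to acinar cells, and ducts, islets, vessels and blood in the same tissue were meant to keep their alleles. Peak positions cannot show whether an allele recombined. In this whole tissue, fewer cells of a type and less of a mark per cell cannot be told apart, and the cell type that carried a peak was not measured.

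The 24 peak lists hold positions only, so depth is unknown and the measure used was the number of base pairs in the TSS window covered by peaks (covered bp). K4me3 lists held 17400 to 26081 peaks and K27me3 lists 21420 to 31274. Control replicate 2 stood apart from the other 11 mice. It had the fewest peaks for both marks, its K27me3 lay at the TSS of 24.5% of genes against 10.6% to 15.7% elsewhere, and at 19.9% of the genes with K4me3 in all 12 mice against 2.32% to 7.12%. Comparisons with control are given with and without this mouse. The K27me3 lists of EZ replicate 2 and all 3 KR mice held 10 to 35 peaks on chromosome X against 5637 to 7367 in the other 8. All 3 KE mice were among these 8. KE against KR was therefore split by chromosome X peaks as well as by the Ezh2 allele, and both cannot be told apart. As a check of tissue, all 9 acinar markers (among them Cpa1, Cela1, Ptf1a and Bhlha15) had K4me3 in 12 of 12 mice, whereas of 6 endocrine markers Ins1, Ins2, Gcg and Chga had it in 0. The other endocrine markers, the transcription factor genes Pdx1 and Nkx6-1, had it in 12 and 11 mice. Of 6 duct markers, 3 had K4me3 in 12 mice, Sox9 and Krt19 among them. Cftr and Spp1 had it in 11 and Krt7 in 8, and 4 of the 6 (Sox9, Krt19, Krt7 and Cftr) are members. Markers of other cells were also seen: of 4 blood markers Cd68 had K4me3 in 12 mice and Ptprc in 4, of 3 mesenchyme markers Vim and Col1a1 had it in 12 and Pdgfrb in 4, and Alb, a liver gene, had it in 3.

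The widest K4me3 was found at the transcription factor genes Onecut1 and Sox9. Onecut1 (ENSMUSG00000043013.10) lies at chr9:74861921-74891781 (mm10, plus strand), and its TSS window spans 10564 bp because of a second annotated start. Covered bp in control mice were 9098, 3472 and 8635, in EZ mice 8881, 9027 and 8897, in KR mice 8010, 9155 and 8009, and in KE mice 6913, 8985 and 8429. The low value was that of control replicate 2, and the other 11 mice lay between 6913 and 9155. The widest peak at Onecut1 had a median width of 8758 bp and reached up to 9166 bp downstream of the TSS, so that K4me3 covered 11.1% to 30.7% of the gene body. Of the 12548 genes with K4me3 in all 12 mice, 98.9% had a narrower median widest peak.

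Sox9 (ENSMUSG00000000567.5) lies at chr11:112782224-112787760 (plus strand) and has a single annotated TSS. Covered bp in the 6001 bp window were 5349, 2568 and 5225 in control, 5378, 5226 and 5232 in EZ, 5173, 5403 and 5194 in KR, and 5354, 5176 and 5254 in KE. Without control replicate 2 the range over 11 mice was 5173 to 5403 and all 4 genotypes overlapped. In these mice the peak passed the downstream edge of the window, so covered bp varied at the upstream edge only. The full peak was 6154 to 8555 bp wide. In 11 mice a single peak ran from upstream of the TSS into the gene, covering the whole gene body in 7. The widest peak had a median width of 7985 bp over 12 mice, and 98.6% of the 12548 genes were narrower. The median over those genes was 2339 bp.

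**Figure D1:**
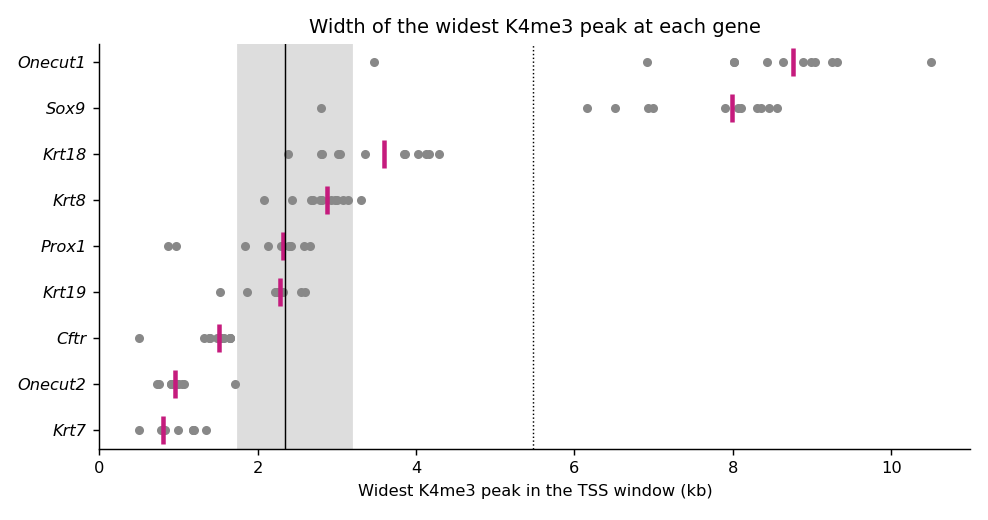
Width of the widest K4me3 peak in the TSS window (kb, horizontal axis) for the 9 genes (vertical axis). Grey dots are mice with a peak, the pink bar is the median over 12 mice with a mouse lacking a peak set to 0, the grey band spans the middle quartiles of the 12548 genes with K4me3 in all mice (1758 to 3196 bp), the solid line is their median (2339 bp) and the dotted line their 95th percentile (5476 bp). Onecut1 and Sox9 lie past the dotted line, and Onecut2 and Krt7 lie at the narrow end.

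The sequences around the gene start are shown for 4 of the 6 genes found in the RefSeq promoter table (GRCm38.p6, the same build), chosen because they span the range of K4me3 width and of CpG content. Each runs 5′ to 3′ from 250 bases before to 50 bases after the RefSeq start, with CG dinucleotides in capitals: Onecut1 at chr9:74861671-74861970 (plus), Krt8 at chr15:102004293-102004592 (minus), Krt7 at chr15:101412153-101412452 (plus) and Cftr at chr6:18170437-18170736 (plus).
Onecut1: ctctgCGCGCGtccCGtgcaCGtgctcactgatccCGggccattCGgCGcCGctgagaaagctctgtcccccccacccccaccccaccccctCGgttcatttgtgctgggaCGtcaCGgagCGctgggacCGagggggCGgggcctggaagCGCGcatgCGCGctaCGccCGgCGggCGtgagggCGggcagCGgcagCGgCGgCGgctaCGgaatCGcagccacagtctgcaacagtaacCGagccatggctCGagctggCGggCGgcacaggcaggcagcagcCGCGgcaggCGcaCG
Krt8: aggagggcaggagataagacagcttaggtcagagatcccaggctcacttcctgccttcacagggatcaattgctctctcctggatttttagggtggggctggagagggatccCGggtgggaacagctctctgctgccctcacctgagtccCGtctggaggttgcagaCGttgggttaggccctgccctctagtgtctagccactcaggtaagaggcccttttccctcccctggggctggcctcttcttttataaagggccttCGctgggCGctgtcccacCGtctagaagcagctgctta
Krt7: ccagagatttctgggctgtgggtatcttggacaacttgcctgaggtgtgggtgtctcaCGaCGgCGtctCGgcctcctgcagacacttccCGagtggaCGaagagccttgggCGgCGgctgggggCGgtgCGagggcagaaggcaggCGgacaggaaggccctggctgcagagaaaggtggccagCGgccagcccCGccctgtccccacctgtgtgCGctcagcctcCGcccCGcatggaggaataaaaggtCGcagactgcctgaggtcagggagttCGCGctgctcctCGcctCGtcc
Cftr: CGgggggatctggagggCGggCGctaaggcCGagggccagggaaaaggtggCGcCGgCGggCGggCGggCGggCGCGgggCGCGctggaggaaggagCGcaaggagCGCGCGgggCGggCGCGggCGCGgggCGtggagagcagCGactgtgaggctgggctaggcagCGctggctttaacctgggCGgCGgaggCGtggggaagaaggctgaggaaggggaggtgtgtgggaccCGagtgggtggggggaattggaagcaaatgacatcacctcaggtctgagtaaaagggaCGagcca

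The Onecut1 promoter held 38 CG dinucleotides, more than 95% of the 32841 promoters in the table, whose median was 7. Cftr held 31, the first of the Prox1 entries 25, Krt7 21, Krt18 17 and Krt8 6. CG number did not order the genes as K4me3 width did. The Cftr promoter, with the second highest CG number, carried a median widest peak of 1507 bp, wider than that of 15.3% of genes with K4me3 in all mice, and Krt8, with the fewest, 2870.5 bp, wider than 67.5%. In the 500 bp on either side of the start, CpG observed over expected was 0.78 for Onecut1, 0.77 for Cftr, 0.57 for Krt7 and 0.44 for Krt8, beside a median of 0.36. A TATAAA box (either strand) was present in the Krt8 promoter and the first Prox1 entry, and in 13.6% of all promoters. GGGCGG, the core letters bound by SP1, was present for Onecut1, both Prox1 entries, Krt7 and Cftr, and in 35.7% of all promoters. ACAAAG, a core of SOX motifs, was present for Krt18 and the second Prox1 entry (18.7% of promoters). ATCGAT, a core of ONECUT motifs and its own reverse complement, was present in none of the 7 entries (0.926%). Other forms of these cores were not searched. A match of letters is a description and not a binding site.

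Prox1 (ENSMUSG00000010175.13, chr1:190118035-190170714, minus strand) had K4me3 in all 12 mice, with covered bp of 3441, 968 and 2660 in control, 2321, 2294 and 2375 in EZ, 1844, 2920 and 2390 in KR, and 1363, 2397 and 2324 in KE. Control replicate 2 was lowest, and the other 2 control mice spanned 2660 to 3441. The annotated 5′ end lay inside a K4me3 peak in 9 of 12 mice, and in the other mice the peak began 0.113 to 0.187 kb downstream. At 2322.5 bp the median widest peak was close to that of the 12548 genes (49.2% were narrower).

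Onecut2 (ENSMUSG00000045991.19, chr18:64340020-64400987, plus strand) had the shortest K4me3 of the transcription factors. Covered bp were 2281, 723 and 1440 in control, 1658, 1583 and 1465 in EZ, 1344, 1628 and 1296 in KR, and 1130, 1429 and 1594 in KE. The values of all genotypes overlapped. The TSS itself was inside a K4me3 peak in 0 of 12 mice. A peak of 626 to 997 bp lay upstream in all 12, ending 70 to 227 bp before the TSS, and a second of 501 to 1717 bp lay inside the gene in 11, beginning 1347 to 2629 bp after it. Control replicate 2 lacked the second peak. Of the 12548 genes, 2.75% had a narrower median widest peak than the 958.5 bp of Onecut2.

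K27me3 was present in the Onecut2 window in 12 of 12 mice, a state shared with 3.07% of genes. Covered bp of the 6001 bp window were 2494, 6001 and 4121 in control, 2302, 3286 and 2663 in EZ, 6001, 3617 and 6001 in KR, and 6001, 3484 and 4314 in KE. The window was filled in control replicate 2, KR replicates 1 and 3 and KE replicate 1, and the EZ mice were low, with a mean of 2750 ± 498 bp (SD, n = 3) against 4205 ± 1755 bp in control. Control and EZ mice nevertheless overlapped. The mark belonged to a broad domain: within 100 kb on either side of the TSS, K27me3 covered 32.6% to 62.2% of the sequence (median 50.6%), including peaks over the upstream neighbour genes St8sia3 and St8sia3os. In the study's own window for K27me3 genes, from 100 kb upstream to 3 kb downstream of the TSS, the mark covered 48.8 to 88.5 kb. Over these wider spans the EZ mice were not low, and again overlapped with control. Within 100 kb the mark covered 48.0%, 44.6% and 62.2% in EZ against 35.3%, 32.6% and 51.5% in control. In the study's window it covered 68.0, 73.6 and 88.5 kb in EZ against 63.4, 48.8 and 83.7 kb in control.

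Both marks therefore fell in the Onecut2 window in all 12 mice, which was the case for 111 genes (0.496% of all) and for no other member. The peaks overlapped on the same bases over 287 to 1440 bp per mouse (median 832.5), and in 5 mice all of the K4me3 lay inside K27me3. The base of the TSS was inside a K27me3 peak in 7 mice. Both peak sets come from one whole pancreas per mouse, so marks on the same molecule and marks in different cells cannot be told apart.

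**Figure D2:**
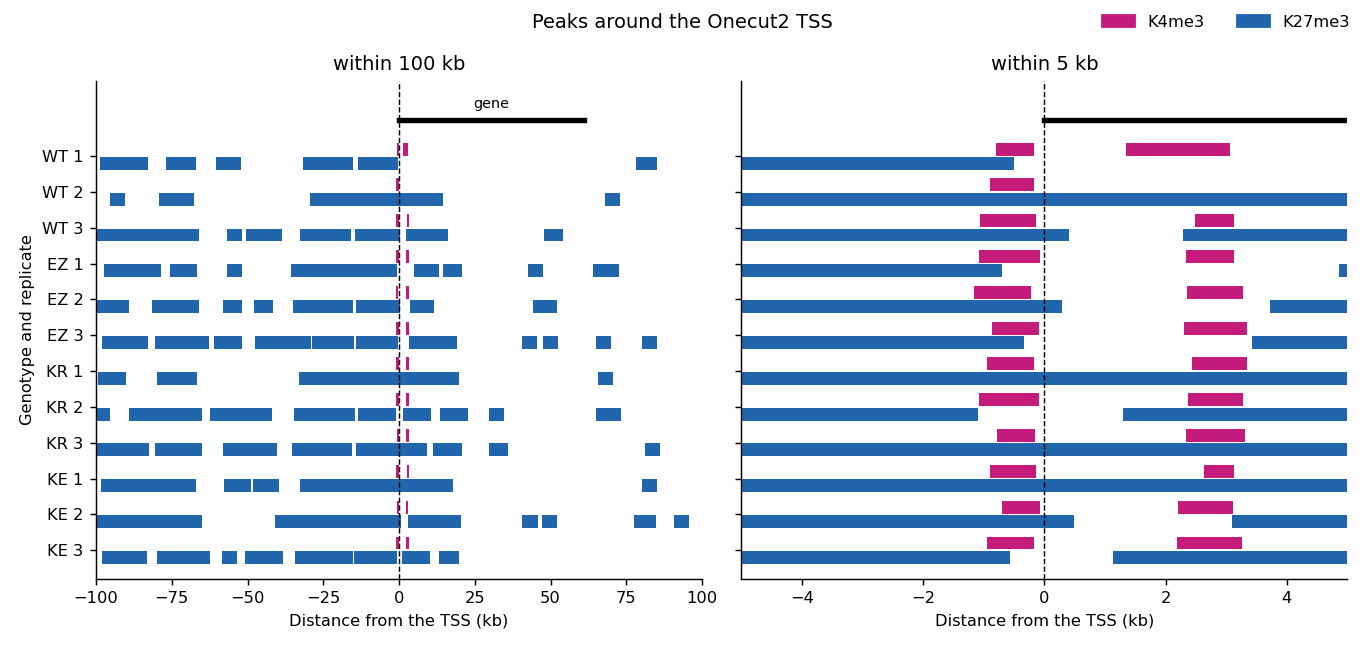
K4me3 (pink) and K27me3 (blue) peaks of the 12 mice (rows) by distance from the Onecut2 TSS in kb, within 100 kb (left) and 5 kb (right), with the gene as a black line. Short K4me3 peaks flank the TSS, ending 70 to 227 bp before it and, in 11 mice, resuming 1347 to 2629 bp after it, inside or beside a K27me3 domain that covers 32.6% to 62.2% of the left panel.

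The 3 genes whose K27me3 covered bp followed that of Onecut2 most closely over the 12 mice, among 4106 genes with K27me3 in at least 4 mice and at least 1 Mb away, were Barx2 (Spearman rho 0.94), Fgf10 (0.93) and Lor (0.92). These are descriptions over 12 libraries that also differ in the number of peaks.

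At the other 3 transcription factors K27me3 was seen in few mice. For Sox9 the mark covered the window in control replicate 2 (6001 bp) and was absent from it in the other 11 mice, in which the nearest K27me3 peak was 278 to 1296 kb from the TSS. For Onecut1 it filled the 10564 bp window in control replicate 2 and reached 937 bp into it in KR replicate 1, from a peak whose near edge was 2.064 kb upstream of the TSS. For Prox1 it covered 7316 bp in control replicate 2, 6087 bp in KR replicate 1 and 1889 bp in KE replicate 1. In KE replicate 1 the K27me3 and K4me3 peaks of Prox1 shared no base, whereas in KR replicate 1 all 1844 bp of K4me3 lay inside K27me3.

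**Figure D3:**
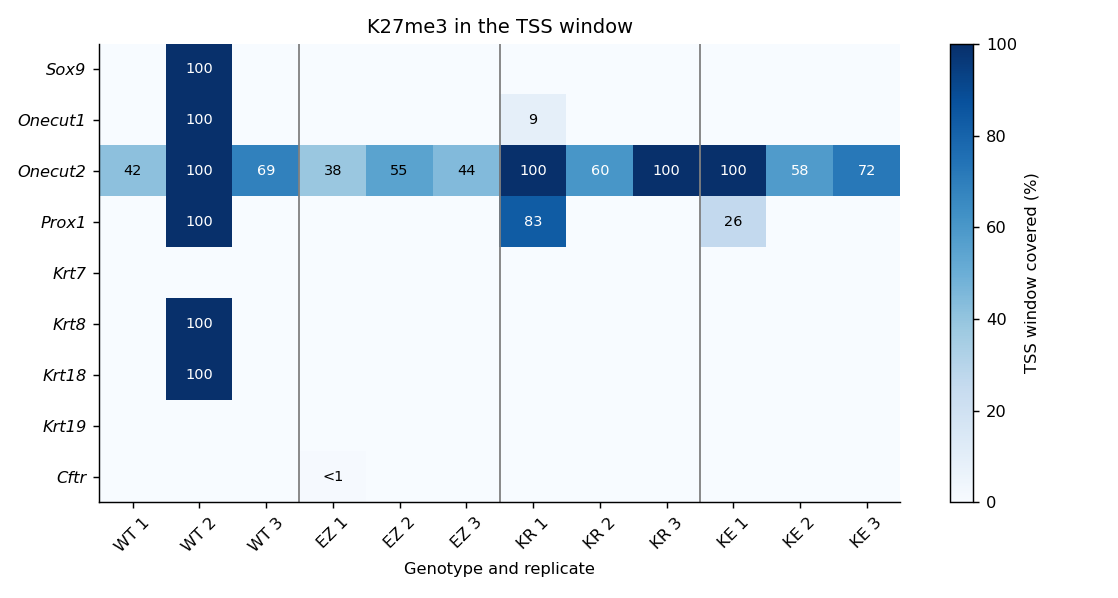
Share of the TSS window covered by K27me3 (%, colour and printed number; blank is 0) for the 9 genes (rows) in each mouse (columns, by genotype and replicate). Onecut2 is covered in every mouse, the column of control replicate 2 is filled for 6 of 9 genes, and Krt7 and Krt19 are blank throughout.

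Among the keratins, the partner genes Krt8 (ENSMUSG00000049382.10, chr15:101996698-102004482, minus strand) and Krt18 (ENSMUSG00000023043.7, chr15:102028180-102032027, plus strand) are transcribed away from each other from starts 23.7 kb apart. K4me3 was present at both in 12 of 12 mice. Krt8 had 2076 to 5051 covered bp, in 2 peaks in 11 mice, and control replicate 2 had only 1 of them and the lowest value. Krt18 had 2379 to 4284 covered bp in a single peak that spanned the TSS and 45.8% to 64.1% of the gene body. Counting the Krt8 and Krt18 peaks just described, 4 separate K4me3 regions reached into the interval between both starts in each of 11 mice. They covered 11.7% to 24.9% of it. In control replicate 2 only the Krt18 peak reached into the interval. K27me3 was found over both TSSs in control replicate 2 alone, from 2 separate peaks of 8800 and 7539 bp, a pattern (K4me3 in all mice, K27me3 in this mouse alone) that Sox9 shared and that held for 5.73% of all genes. In the other 11 mice the nearest K27me3 was 117 to 749 kb from the Krt8 TSS.

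Krt19 (ENSMUSG00000020911.14, chr11:100140810-100148665, minus strand, main TSS at 100146120) had K4me3 in 12 mice and K27me3 at the TSS in 0. Covered bp were 2279, 1524 and 2277 in control, 2603, 2223 and 2298 in EZ, 1865, 2324 and 2278 in KR, and 2237, 2255 and 2545 in KE, and the genotypes overlapped. Relative to the main TSS the peak began between -593 and 188 bp. Smaller clusters of K4me3 lay upstream outside any annotated gene of the set used: at 22.1 to 23.6 kb in 11 mice (501 to 1439 bp wide) and at 8.99 to 10.3 kb in 9 mice. Control replicate 2 had neither. K27me3 began farther out in the keratin cluster, 40.5 to 97.9 kb upstream of Krt19, in 10 of 12 mice, over Krt14 in 3 and over Krt9 in 2, both keratins of stratified epithelia. Control replicates 1 and 3 were the mice without it.

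Krt7 (ENSMUSG00000023039.17, chr15:101411043-101430313, plus strand, main TSS at 101412402) was the member with the weakest K4me3. Covered bp were 1354, 0 and 1180 in control, 997, 774 and 1198 in EZ, 0, 501 and 0 in KR, and 0, 1183 and 827 in KE. All 3 EZ mice and 2 of 3 control mice had a peak, against 1 of 3 KR mice, in which it was the minimum width the lists contain (501 bp). The 4 mice without a peak were also those with the 4 shortest K4me3 lists (17400 to 23041 peaks, against 23749 or more in the other 8), and the part of list length in this pattern was not tested. The same presence or absence over the 12 mice was found at 5 genes of the whole set. K27me3 covered neither the TSS window nor the gene body of Krt7 in any mouse, and the nearest peak was 23.3 to 543 kb away.

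Cftr (ENSMUSG00000041301.15, chr6:18170687-18322768, plus strand) had K4me3 in 11 of 12 mice. Covered bp were 1489, 0 and 1646 in control, 1569, 1323 and 1525 in EZ, 1380, 1645 and 1402 in KR, and 501, 1646 and 1553 in KE. The lowest values, 0 and 501, came from the lists with the fewest peaks, control replicate 2 and KE replicate 1. K27me3 touched the Cftr window in EZ replicate 1 by 107 bp, and shared no base with K4me3.

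**Figure D4:**
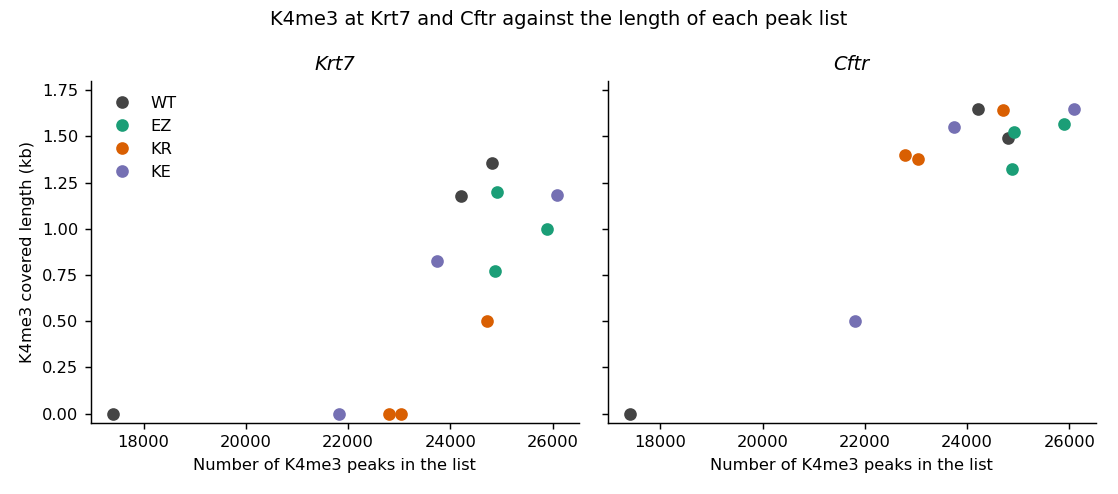
K4me3 covered length in the TSS window (kb, vertical axis) of Krt7 (left) and Cftr (right) against the number of K4me3 peaks in the list of the same mouse (horizontal axis), coloured by genotype. Krt7 is at 0 in the 4 lists with 17400 to 23041 peaks, and Cftr is at 0 in the shortest list and at 501 bp in the next.

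By genotype, the number of members with K4me3 at the TSS in all 3 mice was 7 in control, 9 in EZ, 8 in KR and 8 in KE, beside 57.1%, 60.1%, 59.2% and 59.1% of all genes. In the 2 control mice other than replicate 2 it was 9, beside 60.8% of all genes, so Krt7 and Cftr were missing from the control count through that mouse alone. The number with K27me3 in all 3 mice was 1 in each genotype, Onecut2, beside 5.80%, 7.39%, 8.34% and 9.92% of all genes (8.35% in control without replicate 2). Counting each gene in each mouse, K27me3 was present in 8 of 27 instances in control, of which 6 were in control replicate 2, and in 4, 5 and 4 of 27 in EZ, KR and KE.

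Pairwise comparisons asked whether any member gained or lost either mark with loss of the EZH2 SET domain. A member was called where covered bp of the 3 mice of each genotype did not overlap, and the smallest exact two-sided permutation p for 3 mice against 3 is 0.1. For K4me3, 0 of 9 members were called in EZ against control or in KE against KR, while 11.2% and 8.24% of the 14799 genes with K4me3 in any mouse were. For K27me3, non-overlap requires the mark in at least 3 of the 6 mice compared, which 1 member, Onecut2, had in both comparisons. Onecut2 was not called in either, while 2.28% and 12% of the 7912 genes with K27me3 in any mouse were (5.42% and 26.3% of the genes with the mark in at least 3 of the 6 mice). With equal numbers of the widest autosomal peaks in each list, which leaves out chromosome X, the share of genes called in KE against KR was 3.03%, and no member was called. The smallest exact permutation p among members was 0.3 for K4me3 (Krt8, EZ against control, 4423 ± 189 against 3562 ± 1305 bp, n = 3 each) and 0.3 for K27me3 (Onecut2, EZ against control). In KE against KR the K4me3 member with the smallest exact permutation p was Krt7, at 670 ± 607 against 167 ± 289 bp (p = 0.4, n = 3 each), and Onecut2 K27me3 was 4600 ± 1283 against 5206 ± 1376 bp (exact permutation p = 0.7).

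The median K4me3 difference over members was 348 bp in EZ against control and -38.3 bp in KE against KR, beside 83.0 and 26.0 bp over all genes. Control replicate 2 held the lowest K4me3 value of all 9 members (tied at 0 for Krt7), as it did for 42.2% of genes with K4me3 in all mice. Without this mouse the median over members in EZ against control was -14.8 bp, beside 11.2 bp over all genes, so the direction of the shift turned with 1 library.

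Without control replicate 2, Prox1 K4me3 was lower in EZ than in control (2330 ± 41.2 bp, n = 3, against 3051 ± 552 bp, n = 2; exact permutation p = 0.1), with no overlap. This was 1 of 9 members. With 2 control mice, non-overlap was reached by 22% of genes in EZ against control, so 1 of 9 is below the background. Krt8 was then 4423 ± 189 bp in EZ against 4305 ± 305 bp in control (exact permutation p = 0.6), and Onecut2 K27me3 2750 ± 498 against 3308 ± 1150 bp (exact permutation p = 0.6), where 9.86% of 6115 genes were called for K27me3.

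**Figure D5:**
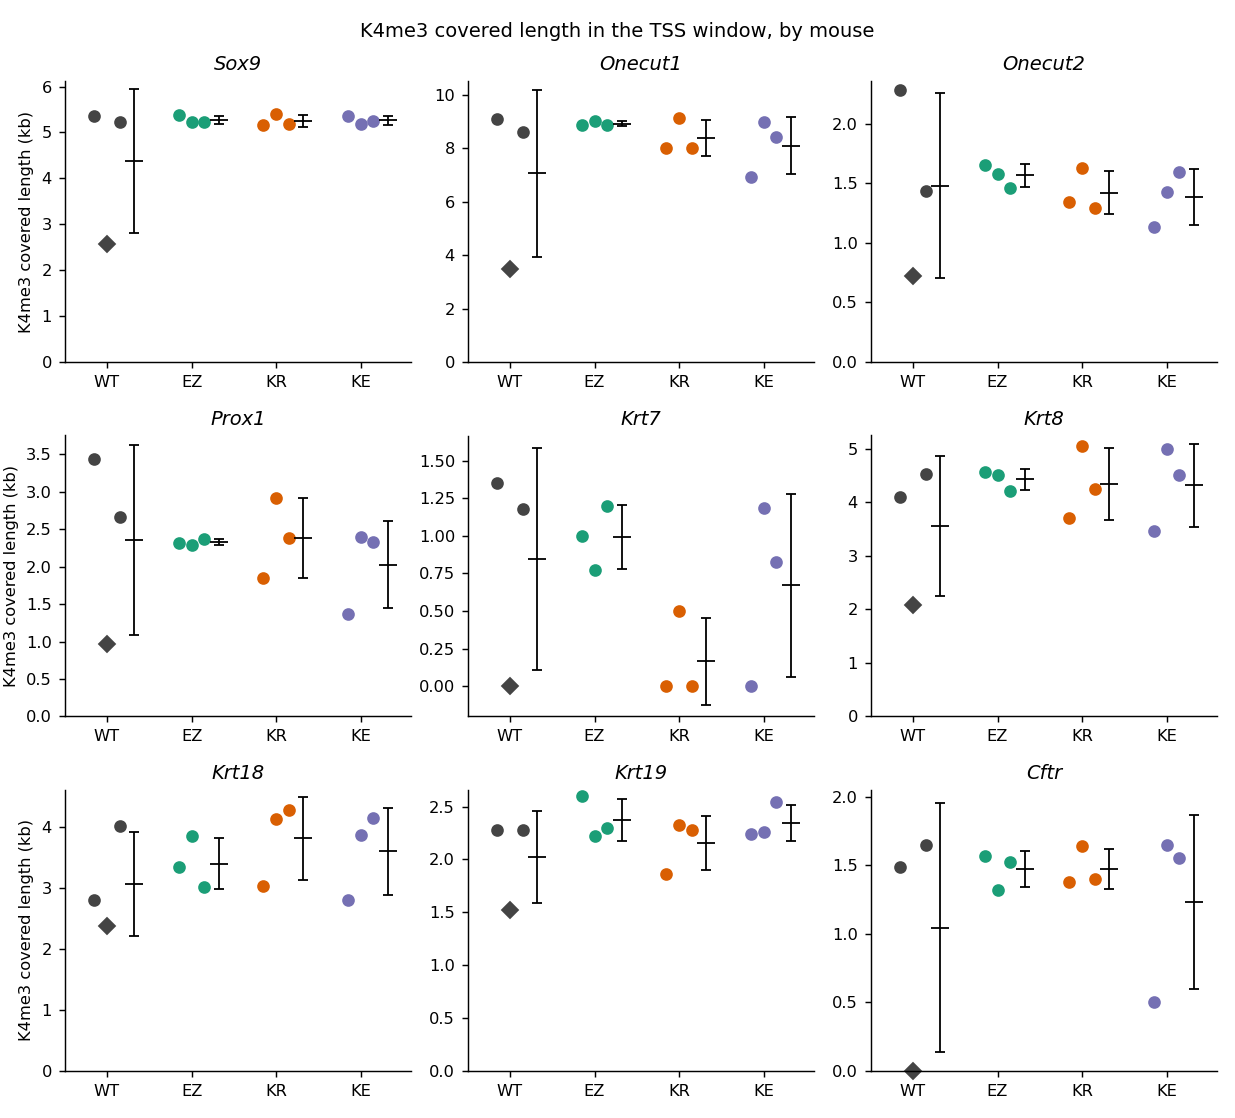
K4me3 covered length in the TSS window (kb, vertical axes) of the 9 genes by genotype (horizontal axes). Coloured points are single mice, the diamond is control replicate 2, and the black mark and bar give the mean ± SD of 3 mice. The diamond is the lowest point for every gene, tied at 0 with other mice for Krt7.

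Both comparisons were also joined, which set the 6 mice with EZH2ΔSET (EZ and KE) against the 6 without (control and KR), permuting labels within each comparison (smallest p 0.005). For K4me3, 0 of 9 members were called at p under 0.05, beside 6.72% of genes. For K27me3, 0 were called, beside 2.34%, and of the members other than Onecut2 none had the mark in more than 3 of the 12 mice. After Benjamini-Hochberg adjustment over all genes no gene passed for either mark. The member with the smallest K4me3 p was Krt19, the duct keratin, at 2360 ± 169 bp in the 6 mice with EZH2ΔSET and 2091 ± 326 bp in the 6 without (exact permutation p = 0.17, adjusted p = 0.780). For K27me3 it was Onecut2, at 3675 ± 1335 bp with EZH2ΔSET and 4706 ± 1513 bp without (exact permutation p = 0.2, adjusted p = 1). The direction of this Onecut2 difference turned when the width of the widest peak was measured instead.

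Without control replicate 2, Krt19 K4me3 was 2360 ± 169 bp against 2205 ± 191 bp in the 5 remaining mice (exact permutation p = 0.28), and Onecut2 K27me3 was 3675 ± 1335 against 4447 ± 1536 bp (exact permutation p = 0.395). The member with the smallest K4me3 p was then Prox1, which was lower with EZH2ΔSET (2179 ± 402 against 2651 ± 595 bp, exact permutation p = 0.115). No member was called without that mouse, beside 5.45% of genes for K4me3 and 4.06% for K27me3. With limma on log2(covered bp + 500), 0 members reached an unadjusted p under 0.05 for the Ezh2 allele in either mark, beside 933 of 14799 genes for K4me3 and 333 of 7912 for K27me3.

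The wider duct programme was read from 26 other genes of duct cells. K4me3 was present in all 12 mice at 18, in some mice at 5 and in none at 3, the water channel genes Aqp1 and Aqp5 and the tetraspanin gene Tspan8. In K4me3, EZ against control called 6 of the 23 genes with a value (of which Epcam, Hes1 and Pkhd1 differed most), all higher than control, beside 11.2% of all genes, and KE against KR called 0, beside 8.24%. Epcam, an epithelial adhesion gene, had 3604 ± 135 bp in EZ against 2452 ± 1045 bp. For K27me3, 12 of the 26 genes had the mark in any mouse, and 0 were called in either comparison, beside 2.28% and 12% of all genes with K27me3. A call needs the mark in at least 3 of the 6 mice compared. Without control replicate 2 the counts for EZ were 6 higher and 4 lower of 22 genes, beside 22% of all genes in either direction, and Epcam was 3604 ± 135 against 3017 ± 519 bp (exact permutation p = 0.1).

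In the joined comparison 4 of these genes had an exact permutation p under 0.05 for K4me3 before adjustment, with a higher mean in the 6 mice with EZH2ΔSET. The 3 with the largest difference were Spp1 (2047 ± 565 against 1172 ± 610 bp, p = 0.02), Epcam (3576 ± 240 against 2776 ± 815 bp, p = 0.035) and Pkhd1 (2793 ± 192 against 2154 ± 701 bp, p = 0.015), by exact permutation. In KE against KR alone these 3 were not called, at 1936 ± 851 against 1241 ± 72.6 bp for Spp1 (exact permutation p = 0.4), 3547 ± 352 against 3099 ± 506 bp for Epcam (p = 0.4) and 2694 ± 231 against 2481 ± 229.8 bp for Pkhd1 (p = 0.3). Spp1 encodes osteopontin, a secreted phosphoprotein of ducts, and Pkhd1 encodes fibrocystin, a protein of primary cilia. All 4 remained called without control replicate 2, where Spp1 was 2047 ± 565 against 1406 ± 232 bp (exact permutation p = 0.04), Epcam 3576 ± 240 against 3066 ± 444 bp (p = 0.035) and Pkhd1 2793 ± 192 against 2433 ± 176 bp (p = 0.025). The differences averaged over both comparisons were then smaller than with all mice, falling from 875 to 600 bp for Spp1, from 800.2 to 518 bp for Epcam and from 638.5 to 371.5 bp for Pkhd1. None of the 4 passed adjustment over all genes (smallest adjusted p 0.55). The share of 4 in 23 stands beside 6.72% of all genes.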

How the data were processed

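Cross-linked chromatin of 12 mouse pancreata was immunoprecipitated for H3K4me3 or H3K27me3 (Millipore Sigma antibodies) and sequenced. Per the submitters' processing notes and the study's methods, the authors checked reads with FastQC and placed them on mm10 using Bowtie2, and HOMER in histone mode then called peaks per mouse against local background and that mouse's input. Versions are not given in the sources used here. The deposited lists give the start and end of each peak and no usable score (the score column is 1 in every row), so no count, signal or depth is known, and the precision of a value is set by 3 mice per genotype. Whether replicates were separate litters is not given in the labels, so p-values measure the spread between these mice. The narrowest deposited peak is 501 bp for K4me3 and 5001 bp for K27me3. Input samples were not used here.

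Overlapping peaks of a list were merged. TSSs were those of all transcripts of 22392 genes of GENCODE release M21 (mm10) with an Entrez identifier, and covered bp were summed within 3 kb of them. Groups came from the labels. Pairs of genotypes were compared by exact permutation and by non-overlap, the Ezh2 allele also by exact permutation within both pairs (400 labellings), and as an alternative by limma 3.58.1 (R 4.3.3) with a pseudocount of 500 bp. An allele carried by KR and KE, some genes, and the comparisons that need them are not reported here. Adjusted p-values are Benjamini-Hochberg over all genes with a value above 0 in any mouse. Scripts ran in Python 3.11.15 with NumPy 2.4.6 and were tested on simulated data. Alternatives were a 1 kb window, the gene's 5′ end, stricter peak widths, equal numbers of the widest autosomal peaks, the gene body, the study's window, other limma settings and each mouse left out. Named genes were the 9 members, up to 3 called genes of the other duct list per comparison, and the 3 genes most like a member in K27me3. The members and lists were chosen with earlier results of these data known.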

Additional observations from a re-analysis of the deposited data

How the results depend on the processing

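The lists hold no scores, so results are limited by the peak caller's threshold in each list and by 3 mice per genotype, and a short or absent peak in a short list cannot be told apart from a weaker one. Of 108 values recomputed under the planned settings with all mice, 91 stayed within 1.5 times of those reported, as did all 8 with K27me3 peaks of at least 10 kb (chosen after seeing the data). A minimum width of 4 kb removes no K27me3 peak. A K4me3 minimum of 1 kb left 5 members with K4me3 in all KE mice, and 0 members with both marks in all mice of any genotype. Of the Onecut2 K4me3 peaks, 12 of 12 upstream and 8 of 11 downstream of the TSS are narrower than 1 kb. Within 1 kb of the TSS, 0 members had K27me3, or both marks, in all KR mice. With equal numbers of the widest autosomal peaks, 0 had both marks in KE. Over the gene body, 0 members had K27me3, or both marks, in all control mice, and in the study's window 2 members (Onecut2 and Krt19) did in EZ, KR and KE. With each mouse left out, called members ranged from 0 to 3 for K4me3 in EZ against control, from 0 to 1 for K4me3 in KE against KR and for K27me3 in EZ against control, and were 0 throughout for the joined Ezh2 comparison. In EZ against control, K4me3 members were called without control replicate 1 (Sox9, Onecut1 and Onecut2), control replicate 2 (Prox1), control replicate 3 (Krt8 and Krt18) or EZ replicate 2 (Krt19), and Onecut2 K27me3 without control replicate 1. In KE against KR, Krt7 K4me3 was called without KE replicate 1. Of all genes, 6.22% to 26.6% were called in these cases. Measured by the width of the widest peak, the joined Ezh2 difference of Onecut2 K27me3 turned to 1453.5 bp higher with EZH2ΔSET (exact permutation p = 0.92). The cause of these shifts was not tested. With the replicate number as a block in limma, 0 members were called for Ezh2 in either mark, and the block changed no call among the members, while genes called over the whole table went from 5 to 3 for K4me3 and from 1 to 0 for K27me3. Replicate numbers did not pair the mice: the correlation of deviations between same-numbered mice of different genotypes ran from -0.70 to 0.53 for K4me3 and from -0.32 to 0.21 for K27me3.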

Other observations

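Among the other duct genes, K27me3 was seen in at least 6 mice at some that also carried K4me3. Hhex, a homeobox gene of the early pancreas and its ducts, had K27me3 in 8 mice, at 0, 7930 and 0 bp in control, 1489, 0 and 1116 bp in EZ, 5224, 0 and 4657 bp in KR, and 2031, 1953 and 2702 bp in KE. Car2, a carbonic anhydrase of bicarbonate-secreting cells, had K4me3 in all 12 mice and K27me3 in 6, at 0, 6252 and 0 bp in control, 0, 4635 and 2786 bp in EZ, 5959, 0 and 6290 bp in KR, and 4921, 0 and 0 bp in KE. These 2 genes were picked after their values were seen, and no test is attached to them.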
